A study of Mus musculus with 8 samples.

Results

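The genes described here are 34 genes of the endoplasmic reticulum (ER), listed by name as chaperones, disulfide isomerases, degradation factors, stress sensors, translocon subunits and collagen-folding proteins. They were found by their symbols in a table of 22520 protein-coding genes, and all 34 were present. The study profiled cells labelled as liver microvesicular cells, described in the paper as liver ECs, from mice at postnatal day 14 on a C57BL/6 background, with 4 WT and 4 LRP1 eKO libraries. Both groups carry floxed Lrp1 alleles (LRP1 f/f) and are littermates. LRP1 eKO mice also carry Cdh5-CreER (Cdh5-CreER+/-), a Cre recombinase fused to an estrogen receptor and driven by the promoter of the endothelial gene Cdh5, and WT mice do not (Cdh5-CreER-/-), so that the loss of Lrp1 and the presence of CreER cannot be told apart. The paper states that ECs were selected with PECAM-1 antibody beads, and does not say whether mice were pooled for a library. How CreER was induced is not given in the sources used here. Nothing in the labels says that each library is a separate mouse, so p-values measure the spread between libraries.

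The values are a quantile-normalized signal of each gene in each library. The libraries were therefore forced to nearly the same distribution, and their depth is unknown. Whether the signal is per transcript length is not stated, so levels of members are compared between libraries and not with each other. Differences are given as log2 fold changes of (signal + 1), LRP1 eKO against WT, fitted with limma over the 11391 genes whose signal reached 1 in 4 or more libraries, and SE is the standard error of the fit. A gene is called higher or lower at a Benjamini-Hochberg adjusted p below 0.05 over all genes tested. The targeted gene Lrp1 stood at 61.6, 58.96, 56.2 and 85.1 in the WT libraries, in replicate order, and at 6.01, 2.16, 5.15 and 4.32 in the LRP1 eKO libraries. It fell from 65.5 ± 13.3 to 4.41 ± 1.65 (mean ± SD, n = 4 libraries per group), a difference of -3.66 on this scale (SE 0.23, limma adjusted p = 2.8e-06), without overlap. The library lying farthest from its group's median was WT replicate 4 for 61.7% of genes and LRP1 eKO replicate 2 for 37.2%, so the counts below are also given without both.

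Defining endothelial markers were checked first, as sums and signals that are not known to be per length. Cdh5 had signals between 1.26 and 4.99 over the 8 libraries, Pecam1 between 1.53 and 3.85, and none of the 10 endothelial markers was at 0 in every library, although Tek, Erg and Cldn5 were below the filter. The summed signal of this list was 33.9 to 38.7 in WT and 41.9 to 63.6 in LRP1 eKO libraries, with 2 of 7 tested markers higher. Eng had the highest mean and rose from 12.4 ± 1.20 to 24.3 ± 3.86 (mean ± SD), without overlap. Cldn5 was lower in every LRP1 eKO library than in any WT library, and the other markers of this list overlapped between the groups. The 8 sinusoidal endothelial markers summed to 9.07 to 12.5 in WT and 10.3 to 32.1 in LRP1 eKO libraries, also with 2 higher, of 5 tested, and Stab1 with the highest mean. Markers of stellate cells and fibroblasts, which are collagen-producing cells, summed to 2788 to 3181 in WT and 2820 to 3335 in LRP1 eKO libraries, with 1 of 9 tested markers higher and 3 lower. Acta2, the marker of this list with the highest mean, had signals from 756 to 837 in WT and from 1032 to 1099 in LRP1 eKO libraries. By these values the endothelial identity of the cells is in doubt, and the ER values below are those of the cells as collected. Macrophage markers summed to 114 to 223 in WT libraries, to 53.0 in LRP1 eKO replicate 2 and to between 396 and 738 in the other LRP1 eKO libraries, and Lyz2 had the highest mean of them. Markers of hepatocytes (sums of 63.4 to 92.3 in WT and 21.3 to 28.8 in LRP1 eKO libraries), of skeletal muscle (46.9 to 73.1 and 14.5 to 15.9) and of dividing cells (202 to 213 and 93.3 to 111) were lower in every LRP1 eKO library than in any WT library. The highest means of these lists were those of Fgb, Actn3 and Cdk1. The shifts of these lists run with the genotype. The part of these and of the other marker lists in the differences of the ER genes was not tested. In such bulk samples, a change in the number of cells of a type and a change of RNA per cell cannot be told apart.

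Proteins that enter the secretory pathway are folded in the ER by chaperones around Hspa5 (BiP), by lectin chaperones and by enzymes that form disulfide bonds, and those that do not fold are returned to the cytosol and degraded. When unfolded proteins build up, the sensors Ern1 (IRE1), Eif2ak3 (PERK) and Atf6 start the unfolded protein response, which induces many of these same genes. Cells that secrete collagen, including fibroblasts and ECs that lay down basement membrane, also need a set of prolyl hydroxylases, prolyl isomerases and the collagen chaperone Serpinh1.

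Many of these genes are known targets of the ER stress response element (ERSE), which is bound by Atf6 together with NF-Y. RefSeq promoter windows on GRCm38.p6, from 250 bases before to 50 bases after a gene's start, were given for 28 of the 34 members. There was no window for Atf6, Derl1, Fkbp10, Hyou1, Manf and Sec61a1. The ERSE was searched as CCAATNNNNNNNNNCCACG and the related ERSE-II as ATTGGNCCACG, on both strands. An ERSE was found for 8 of the 28 members (28.6%), against 37 of all 27025 genes with a window (0.137%), and an ERSE-II for 2 members, against 12 of all genes (0.0444%). A shorter element, the UPRE (TGACGTGG), was found for none of the 28 members and for 0.714% of all genes. As the members were listed for their function, these shares are a description, and no site was found under more than 1 of these names in a member. The sites are shown because they mark which members have this element, with the match in capitals, 5′ to 3′ on the strand of the gene.
Hspa5, ERSE, chr2:34772020-34772048, plus strand: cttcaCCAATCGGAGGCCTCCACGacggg
Derl3, ERSE, chr10:75893222-75893280, plus strand: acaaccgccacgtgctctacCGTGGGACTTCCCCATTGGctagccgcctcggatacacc
Hsp90b1, ERSE, chr10:86705618-86705676, minus strand: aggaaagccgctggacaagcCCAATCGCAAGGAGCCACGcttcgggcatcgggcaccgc
Hsp90b1, ERSE, chr10:86705513-86705571, minus strand: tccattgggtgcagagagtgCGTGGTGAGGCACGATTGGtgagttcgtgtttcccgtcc
Canx, ERSE, chr11:50325780-50325838, minus strand: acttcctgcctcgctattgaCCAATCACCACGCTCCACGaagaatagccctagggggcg
Pdia6, ERSE, chr12:17266471-17266529, plus strand: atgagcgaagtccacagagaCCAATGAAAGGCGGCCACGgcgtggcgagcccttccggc
Dnajc3, ERSE, chr14:118937807-118937865, plus strand: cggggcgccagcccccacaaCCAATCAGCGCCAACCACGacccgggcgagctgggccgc
Creld2, ERSE, chr15:88819500-88819558, plus strand: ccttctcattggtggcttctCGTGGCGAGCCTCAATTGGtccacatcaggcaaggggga
Syvn1, ERSE, chr19:6046512-6046570, plus strand: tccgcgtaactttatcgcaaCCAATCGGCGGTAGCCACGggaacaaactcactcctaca
Herpud1, ERSE-II, chr8:94386353-94386411, plus strand: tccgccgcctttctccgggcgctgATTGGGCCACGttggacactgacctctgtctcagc
Dnajb11, ERSE-II, chr16:22857843-22857871, plus strand: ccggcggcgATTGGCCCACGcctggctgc
The sites of Derl3 and Creld2 and the second site of Hsp90b1 run opposite to the gene, so that the reverse complement of the element appears in capitals. With the RefSeq start of the gene counted as 0, the sites lie upstream, from position -212 for Hsp90b1 to position -26 for Syvn1, except that of Dnajb11, which lies 7 to 17 bases downstream. RefSeq starts can differ from those of GENCODE, by which gene positions are given here, and the site of Hspa5 lies inside its GENCODE span.

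Of the 34 members, 33 passed the filter on low signals. In LRP1 eKO libraries 19 were higher and 2 were lower, and 12 did not pass the test. Over all genes tested, 19.0% were higher and 22.2% were lower, and among the members the shares were 57.6% and 6.06%. The median log2 fold change was 0.16 for the members and -0.0095 for all genes tested. The differences were small, from -0.27 for Xbp1 to 0.65 for Ern1, and none reached 2-fold at any p, so that 0 members passed both thresholds (adjusted p below 0.05 and 2-fold), as 1.66% of all genes tested did. Every LRP1 eKO library lay above every WT library for 21 members, against 20.0% of all genes tested, and below for 1 member, against 22.5%. Without WT replicate 4 and LRP1 eKO replicate 2, the 19 higher members were all kept, Pdia6 was added, and Fkbp2 was no longer lower.

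**Figure D1:**
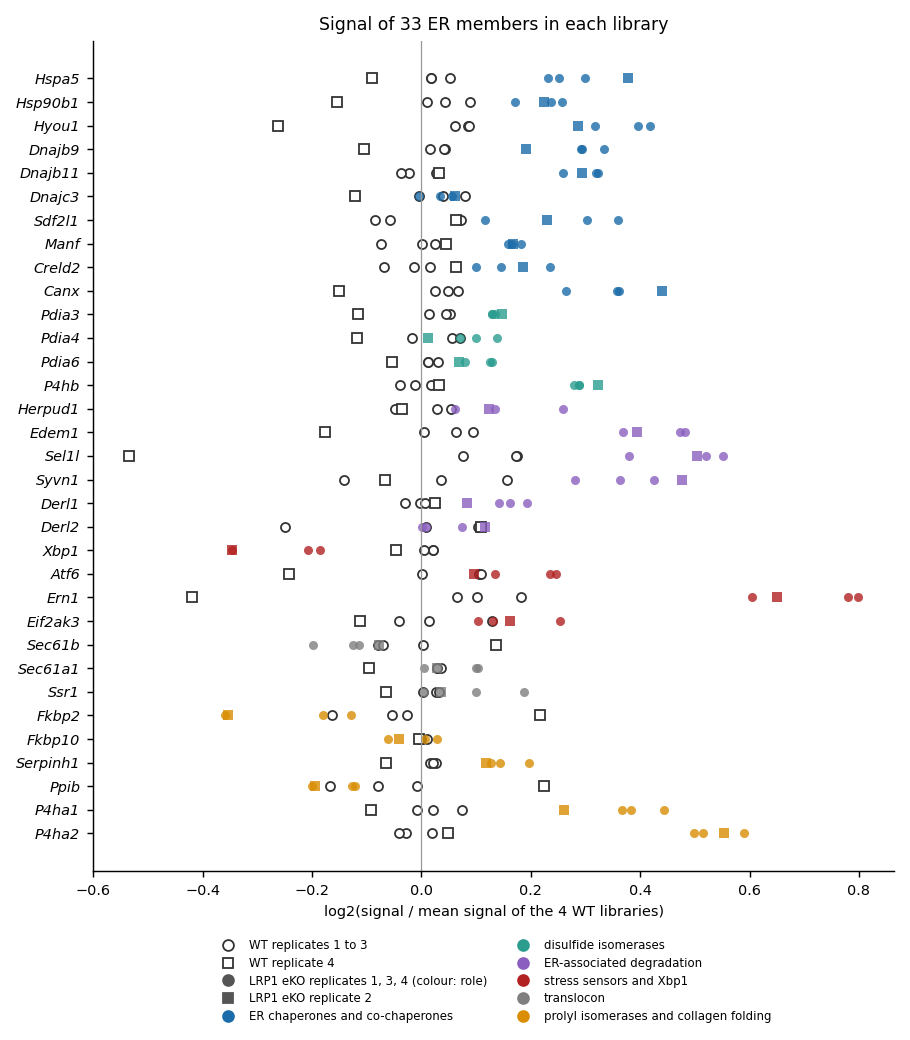
Signal of each of the 33 tested members in each library, as log2 of its ratio to the WT mean (x axis). Open symbols are WT and filled symbols LRP1 eKO libraries, coloured by role, with squares for WT replicate 4 and LRP1 eKO replicate 2. For 21 members the filled symbols all lie right of the open ones, and for Xbp1 all left of them.

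The chaperones around Hspa5 were the group with the largest share of higher genes, with 9 of 10 (90%, against 19.0% of all genes tested). Their median log2 fold change was 0.25. Hspa5 (chromosome 2, 34771970 to 34777547 on GRCm38, plus strand) is the main Hsp70 chaperone of the ER and holds the sensors inactive. Its signal was 378, 378, 387 and 351 in WT replicates 1 to 4 and 438, 486, 445 and 459.9 in LRP1 eKO replicates 1 to 4. All LRP1 eKO libraries were above all WT libraries, and the log2 fold change was 0.29 (SE 0.048, limma adjusted p = 0.0013), with a mean 22.4% above that of WT. An exact permutation test, two-sided, gave p = 0.029, which is the smallest p that 4 against 4 libraries allow. Hsp90b1, the Hsp90 of the ER, had signals of 368, 357, 349 and 311 in WT and 389.9, 404, 414 and 408 in LRP1 eKO libraries. It was also higher without overlap, by 0.22 (SE 0.055, limma adjusted p = 0.0096). Canx, a membrane-bound lectin chaperone for glycoproteins, went from 191, 196, 194 and 169 to 225, 254, 239.9 and 241. Its log2 fold change of 0.36 (SE 0.058, limma adjusted p = 0.0012) was the highest of these 10 genes.

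Of the co-chaperones of Hspa5 in this group, Dnajc3 did not pass the test. Hyou1, which exchanges the nucleotide of Hspa5, had signals of 40.3, 40.3, 39.6 and 31.7 in WT and 49.97, 46.3, 50.7 and 47.3 in LRP1 eKO libraries, with WT replicate 4 well below the other WT libraries. The log2 fold change was 0.35 (SE 0.078, limma adjusted p = 0.0057) and was 0.27 without WT replicate 4. Dnajb11, a J-domain co-chaperone, was 46.1, 45.7, 47.7 and 47.9 in WT and 58.6, 57.4, 56.1 and 58.5 in LRP1 eKO libraries. It differed by 0.29 (SE 0.039, limma adjusted p = 3.5e-04), with little spread in either group. Dnajb9, a J-domain protein known as a target of Xbp1, rose from 21.9, 21.9, 21.5 and 19.8 to 26.1, 24.3, 26.1 and 26.8, a log2 fold change of 0.27 (SE 0.051, limma adjusted p = 0.0028). Sdf2l1, a partner of Dnajb11, rose from 16.6 ± 0.929 to 19.8 ± 1.42 (mean ± SD), by 0.24 (SE 0.063, limma adjusted p = 0.013). Dnajc3, the J-domain co-chaperone that also inhibits Eif2ak3, had signals of 25.8, 27.3, 26.6 and 23.8 in WT and 25.8, 27, 26.5 and 26.9 in LRP1 eKO libraries, with a log2 fold change of 0.037 (95% interval -0.077 to 0.15). Its promoter window holds an ERSE, as does that of Hspa5.

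Manf and Creld2 are small ER proteins that are known to be induced and secreted under ER stress. Manf had signals of 164, 161, 153 and 166 in WT and 183, 181, 181 and 179.97 in LRP1 eKO libraries, and was higher by 0.17 (SE 0.039, limma adjusted p = 0.0073). The SD of the LRP1 eKO libraries of Manf was 1.27, and the groups did not overlap. Creld2 had signals of 24.1, 22.8, 23.7 and 24.96 and 26.4, 27.2, 28.1 and 25.6, a log2 fold change of 0.16 (SE 0.048, limma adjusted p = 0.023). The groups of Creld2 did not overlap either, but it no longer passed the test when WT replicate 2, WT replicate 3 or LRP1 eKO replicate 3 was left out (limma adjusted p = 0.065, 0.053 and 0.073).

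Of the disulfide isomerases, P4hb and Pdia3 were higher, and Pdia4 and Pdia6 did not pass the test. P4hb (protein disulfide isomerase) forms and shuffles disulfide bonds and is also the beta subunit of collagen prolyl 4-hydroxylase. Its signal was 536, 557, 547 and 563 in WT and 673, 689, 673 and 669 in LRP1 eKO libraries, and the difference of 0.29 (SE 0.037, limma adjusted p = 2.4e-04) was large against the spread of both groups. Pdia3, which acts on glycoproteins bound by Canx, had signals of 384, 374, 382 and 342 and 406, 411, 407 and 406. Its log2 fold change was 0.14 (SE 0.045, limma adjusted p = 0.036), and its adjusted p from limma rose to between 0.063 and 0.078 when WT replicate 2 or any one of the LRP1 eKO libraries was left out. Pdia6, a partner of Hspa5, was 181, 179, 179 and 171 in WT and 187, 186, 194 and 193 in LRP1 eKO libraries, without overlap but with a log2 fold change of 0.10 (SE 0.038, limma adjusted p = 0.057). Pdia4 overlapped between the groups (118, 119, 112 and 105 against 121, 114, 125 and 119) and had a log2 fold change of 0.082 (95% interval -0.033 to 0.20).

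ER-associated degradation draws misfolded proteins through a complex of Sel1l and the ubiquitin ligase Syvn1 (HRD1). Of 6 tested genes of this group, 4 were higher (66.7%) and none lower, against 19.0% and 22.2% of all genes tested. Edem1, which marks misfolded glycoproteins for this complex, had signals of 13.6, 14.2, 14.5 and 12 in WT and 18.8, 17.8, 18.9 and 17.5 in LRP1 eKO libraries. Its log2 fold change was 0.41 (SE 0.063, limma adjusted p = 8.4e-04). Sel1l went from 32.6, 34.9, 34.9 and 21.4 to 45.3, 43.9, 44.4 and 40.3. WT replicate 4 was far below the other WT libraries for this gene, and the log2 fold change of 0.50 (SE 0.14, limma adjusted p = 0.016) was 0.34 without it, with an adjusted p from limma of at most 0.040 with any one library left out. Syvn1 (chromosome 19, 6046576 to 6053712, plus strand) had signals of 19.3, 17.8, 15.7 and 16.6 in WT and 21.1, 24.2, 23.3 and 22.3 in LRP1 eKO libraries, a log2 fold change of 0.37 (SE 0.069, limma adjusted p = 0.0023), and holds an ERSE in its promoter window.

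Of the derlins, membrane proteins of the same pathway, Derl1 and Derl2 were tested and Derl1 was higher. Derl1 went from 41.9, 42.7, 42.96 and 43.5 to 47.8, 45.3, 48.9 and 47.2, a log2 fold change of 0.14 (SE 0.040, limma adjusted p = 0.019). The groups did not overlap, yet its adjusted p from limma was between 0.052 and 0.063 without WT replicate 1, LRP1 eKO replicate 1 or LRP1 eKO replicate 3. Derl2 had a log2 fold change of 0.054 (95% interval -0.12 to 0.22), with signals that overlapped and the lowest value, 19.5, in WT replicate 2. Derl3, the form typical of secretory cells such as plasma cells, was below the filter, with signals of 0.457, 0.531, 0.377 and 0.458 in WT and 0.326, 0.368, 0.653 and 0.697 in LRP1 eKO libraries, although its promoter window holds an ERSE. Of the plasma and B cell markers, Cd79b and Tnfrsf17 were at 0 in all 8 libraries, and the sum of the list, in which Sdc1 had the highest mean signal, was 27.1 to 30.3 in WT and 26.0 to 36.2 in LRP1 eKO libraries. Nearly all of this sum was Sdc1, with signals of 26.9 to 30.1 in WT and 25.9 to 36.0 in LRP1 eKO libraries. Herpud1, a scaffold of the Syvn1 complex that carries an ERSE-II, had signals of 29.3, 29.8, 27.7 and 28 in WT and 34.3, 31.3, 31.5 and 29.96 in LRP1 eKO libraries. These did not overlap, with a log2 fold change of 0.14 (SE 0.052, limma adjusted p = 0.052).

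**Figure D2:**
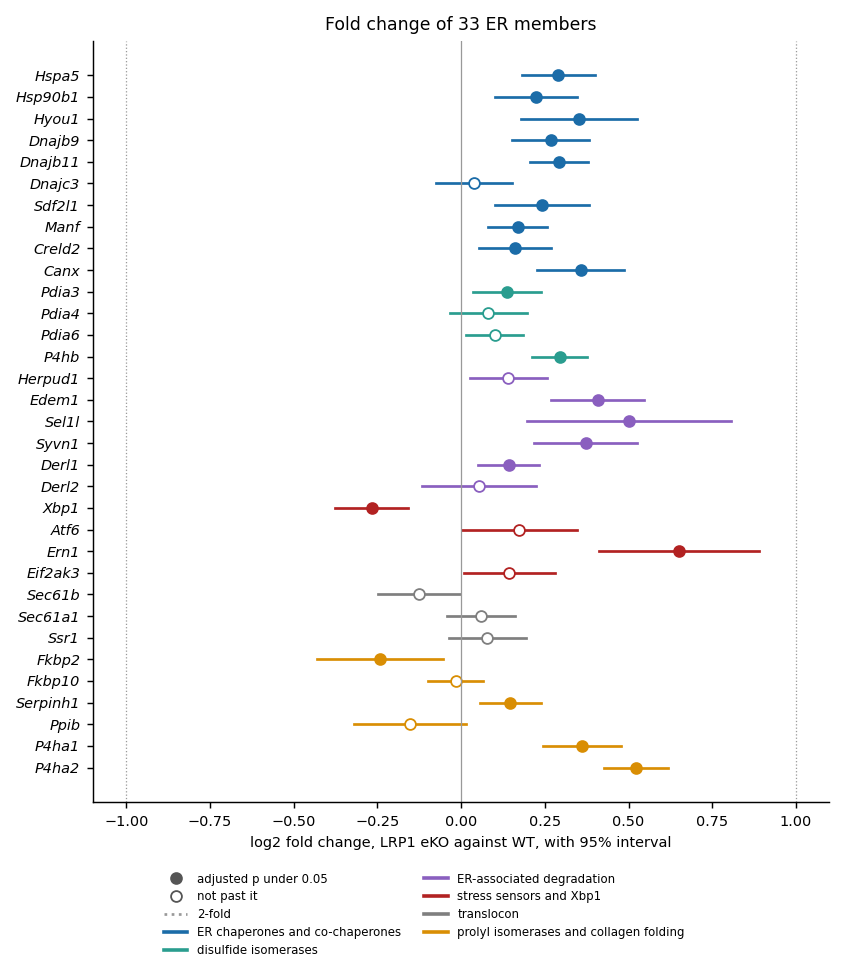
Log2 fold change of each tested member, LRP1 eKO against WT, with its 95% interval from limma, coloured by role. Filled points pass an adjusted p of 0.05 and dotted lines mark a 2-fold change, which no point reaches. Ern1, P4ha2 and Sel1l have the largest positive values, and Xbp1 and Fkbp2 are the filled points below 0.

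In the group of the sensors and Xbp1, the sensor Ern1 was higher and Xbp1 was lower. Ern1 encodes IRE1, the kinase and endoribonuclease that splices Xbp1 mRNA and can cut other mRNAs at the ER membrane. Its signal was 7.60, 8.03, 7.41 and 5.29 in WT and 12.3, 11.1, 12.2 and 10.8 in LRP1 eKO libraries, and the log2 fold change of 0.65 (SE 0.11, limma adjusted p = 0.0012) was the largest of all members. The lowest LRP1 eKO library, 10.8, was above the highest WT library, 8.03, and the log2 fold change was 0.54 without WT replicate 4. Xbp1 (chromosome 11, 5520659 to 5525893, plus strand), the transcription factor made from that spliced mRNA, had signals of 87.6, 87.6, 86.6 and 83.5 in WT and 75.9, 67.9, 74.8 and 67.9 in LRP1 eKO libraries. It was lower without overlap. The log2 fold change was -0.27 (SE 0.049, limma adjusted p = 0.0023) and lay between -0.30 and -0.24 with any one library left out. Spliced and unspliced Xbp1 mRNA are not separated in these values. Atf6, the sensor that is cleaved in the Golgi into a transcription factor, had signals of 14.5, 15.6, 15.6 and 12.3 and 17.2, 15.5, 17.1 and 15.9. Its log2 fold change was 0.17 (95% interval 0.0011 to 0.35, limma adjusted p = 0.097). Eif2ak3, the kinase that slows translation, was 6.49, 7.30, 6.74 and 6.18 in WT and 7.96, 7.47, 7.17 and 7.31 in LRP1 eKO libraries, a log2 fold change of 0.14 (95% interval 0.0078 to 0.28, limma adjusted p = 0.084). Both overlapped between the groups.

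**Figure D3:**
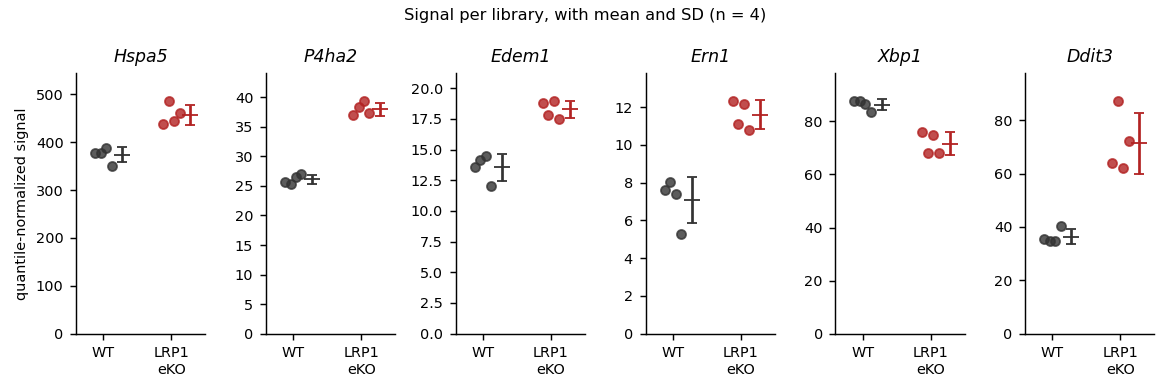
Quantile-normalized signal (y axes from 0) of the members Hspa5, P4ha2, Edem1, Ern1 and Xbp1 and of Ddit3, a target of the Eif2ak3 branch, in WT and LRP1 eKO libraries. Points are libraries, and bars are the mean and SD of 4. The groups do not overlap for any of the 6 genes, and Xbp1 is the one that is lower in LRP1 eKO libraries.

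None of the 3 translocon genes passed the test. Sec61a1, the pore through which new proteins enter the ER, had a log2 fold change of 0.06 (95% interval -0.043 to 0.16), Sec61b, its small subunit, of -0.12 (95% interval -0.25 to -0.0026), and Ssr1, part of the translocon-associated protein complex, of 0.078 (95% interval -0.036 to 0.19). Signals of Sec61b were 126, 127, 133 and 146 in WT and 122, 126, 116 and 123 in LRP1 eKO libraries, highest in WT replicate 4.

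Of the 6 prolyl isomerase and collagen-folding members, 3 were higher (50%) and 1 was lower (16.7%), against 19.0% and 22.2% of all genes tested. P4ha1 and P4ha2, the catalytic subunits of collagen prolyl 4-hydroxylase that pair with P4hb, were both higher. P4ha2 (chromosome 11, 54100095 to 54131665, plus strand) had signals of 25.6, 25.4, 26.5 and 27.03 in WT and 36.9, 38.3, 39.3 and 37.3 in LRP1 eKO libraries. Its log2 fold change of 0.52 (SE 0.043, limma adjusted p = 1.5e-05) had the smallest adjusted p of the members and stayed between 0.51 and 0.54 with any one library left out. P4ha1 went from 117, 119.7, 124 and 111 to 154, 141, 160.2 and 152, by 0.36 (SE 0.052, limma adjusted p = 5.6e-04). Serpinh1 (Hsp47), the chaperone of the collagen triple helix, had signals of 642, 638, 639.5 and 603 in WT and 697, 685, 723 and 689 in LRP1 eKO libraries. It was higher by 0.15 (SE 0.040, limma adjusted p = 0.016), with an adjusted p from limma of 0.055 without LRP1 eKO replicate 3.

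Of the prolyl isomerases Fkbp2, Ppib and Fkbp10, Fkbp2 was lower and the others did not pass the test. Fkbp2 had signals of 35.9, 39.5, 38.7 and 46.7 in WT and 35.5, 31.4, 31.3 and 36.7 in LRP1 eKO libraries. These overlapped, and its log2 fold change of -0.24 (SE 0.084, limma adjusted p = 0.043) was no longer past the test when any of 6 libraries was left out (WT replicates 2 to 4 and LRP1 eKO replicates 1 to 3), with adjusted p-values from limma of 0.056 to 0.11. Ppib, the cyclophilin of the ER, went from 170.3, 181, 190.2 and 223 to 176, 167, 175 and 167. Its WT signals were highest in replicate 4, and the log2 fold change was -0.15 (95% interval -0.32 to 0.015). Of the exonic bases of Ppib, 25.0% overlap exons of Snx22 on the other strand, and whether the counting used strand is not given in the sources used here. The next largest overlap of a member was 10.3% for Hsp90b1. Fkbp10, an isomerase that acts on collagen, had a mean WT signal of 150.3 with an SD of 0.671 and a log2 fold change of -0.017 (95% interval -0.10 to 0.066). Beside these members, the collagen genes of the fibroblast list, Col1a1 (signals of 326 to 423 in WT and 392 to 500.0 in LRP1 eKO libraries) and Col1a2 (701 to 889 and 616 to 827), overlapped between the groups.

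Another 110 genes of the same pathways, listed by function and not among the members, were found in the table, and 106 were tested. In LRP1 eKO libraries 27 were higher (25.5%) and 22 were lower (20.8%), with a median log2 fold change of 0.068. These shares are near those of all genes, 19.0% and 22.2%. Without WT replicate 4 and LRP1 eKO replicate 2, 32 were higher and 21 were lower. The shares of all genes in that setting are not given here, so these counts are not set against them.

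By function, the list with the largest share of higher genes was that of sensor processing and transcription factors, with 9 of 18 higher (50%) and 3 lower (16.7%). Ddit3 (CHOP), the transcription factor of prolonged ER stress, had signals of 35.6, 34.9, 34.7 and 40.5 in WT and 63.9, 87.1, 62.2 and 72.1 in LRP1 eKO libraries. Its log2 fold change of 0.94 (SE 0.10, limma adjusted p = 9.1e-05) was the largest of the 106 genes. Ddit3, from base 1.27291e+08 of chromosome 10, lies near the targeted Lrp1 (127538161 to 127621148). Cnpy2 and Bloc1s1, given below, lie on this chromosome from 1.28322e+08 and 1.28918e+08. Os9, a degradation factor from 1.27096e+08, did not pass the test. The part of this position in the differences was not tested. Creb3l1, a sensor-like factor known to drive collagen and secretory genes, rose from 16.5 ± 0.625 to 22.6 ± 0.768 (mean ± SD), by 0.44 (SE 0.047, limma adjusted p = 9.9e-05). In the other direction, Bloc1s1, whose mRNA is a known substrate of IRE1, went from 96.8, 95.03, 89.5 and 115 to 78.96, 68.5, 71.8 and 76.96, a log2 fold change of -0.41 (SE 0.078, limma adjusted p = 0.0027). Atf6b, a relative of Atf6, was also lower, at -0.19 (SE 0.040, limma adjusted p = 0.0050).

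Other chaperones had 2 higher and 5 lower of 15 (13.3% and 33.3%, against 19.0% and 22.2% of all genes tested). Calr, the soluble partner of Canx and the one gene of the 76 other ER genes with a promoter window that held an ERSE, rose from 661, 697, 697 and 673 to 809.7, 844, 809.7 and 818, a log2 fold change of 0.27 (SE 0.039, limma adjusted p = 6.0e-04). Wfs1, an ER membrane protein, was higher by 0.25 (limma adjusted p = 0.018). Cnpy2 fell from 92.1, 94.3, 94.96 and 114 to 66.8, 63.03, 63.9 and 64.3, with WT replicate 4 the highest. Its fitted value was -0.60 (SE 0.067, limma adjusted p = 1.1e-04), and its relative Cnpy4 was lower with -0.41 (limma adjusted p = 0.0016). Oxidoreductases had 2 higher and 2 lower of 15 (13.3% each), below the shares of all genes. Ero1l, which reoxidizes P4hb, rose from 53.4, 55.6, 55.3 and 42.5 to 73.2, 69.9, 76.4 and 75.96, by 0.51 (SE 0.082, limma adjusted p = 0.0010), and Pdia5 was higher by 0.14 (limma adjusted p = 0.044). Txndc12 and Prdx4 were lower, with log2 fold changes of -0.36 and -0.19 (limma adjusted p = 9.1e-04 and 0.022).

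Further degradation factors had 6 higher and 2 lower of 20 (30% and 10%, against 19.0% and 22.2% of all genes tested). Herpud2 (log2 fold change 0.26) and Nploc4, a cofactor of Vcp (0.28), were higher, and the ubiquitin ligase Rnf139 (-0.19) and the deglycosylating enzyme Ngly1 (-0.30) were lower. Of 22 further translocation and signal peptide factors, 4 were higher and 4 lower (18.2% each), near the shares of all genes tested. The smallest adjusted p-values of the higher ones were those of Sec63 (log2 fold change 0.24) and Sec61a2 (0.27, with overlapping groups). The lower ones were led by Spcs1 (-0.32) and Sec61g (-0.33). Of 16 further genes of collagen modification, 4 were higher (25%) and 6 were lower (37.5%). Here the lysyl hydroxylases Plod2, with signals of 97.8, 98.1, 98.7 and 75.9 in WT and 129, 121, 134 and 130.1 in LRP1 eKO libraries, and Plod1 rose by 0.47 and 0.26. Among prolyl isomerases of this list Fkbp14 was higher and Fkbp9, like the lysyl hydroxylase Plod3, did not pass the test, with log2 fold changes of 0.19, 0.084 and 0.11 (limma adjusted p = 0.013, 0.18 and 0.099). The prolyl isomerases Fkbp7, Fkbp11 and Ppic were lower, with log2 fold changes of -0.32, -0.44 and -0.31. Fkbp7 had signals of 55.6, 57.6, 59.4 and 59.8 in WT and 49.4, 43.4, 48 and 45.3 in LRP1 eKO libraries. The other genes given as higher or lower in this paragraph had limma adjusted p-values between 7.7e-04 for Sec63 and 0.017 for Sec61g.

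**Figure D4:**
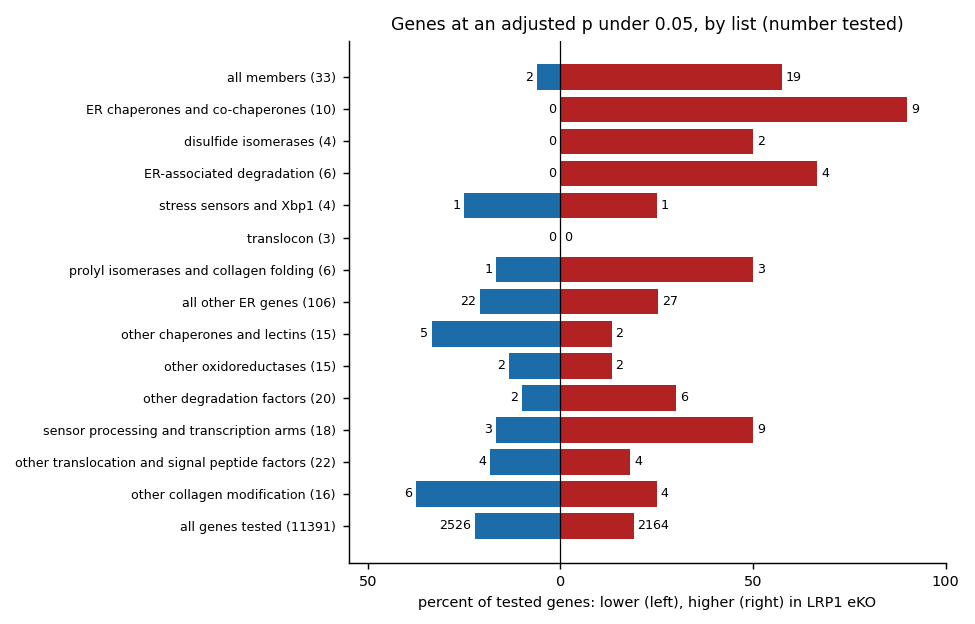
Share of tested genes called higher (right, red) and lower (left, blue) in LRP1 eKO libraries at an adjusted p below 0.05, for the members, their roles, the other ER genes and all genes tested. The number tested is in brackets and the numbers called stand beside the bars. The members have 19 higher and 2 lower of 33, and all genes tested 2164 higher and 2526 lower of 11391.

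Of the 10 members with an ERSE or ERSE-II, 9 were tested, and 6 were higher and none lower, with a median log2 fold change of 0.22 and a range from 0.037 for Dnajc3 to 0.37 for Syvn1. The 18 members whose window held neither had 10 higher and 2 lower and a median of 0.15, with a range from -0.27 for Xbp1 to 0.65 for Ern1. Over all genes tested, 19.0% were higher and 22.2% were lower, and over all tested members 57.6% and 6.06%. Whether members with and without a site differ was not tested. A window without a match says only that these letters are not in it.

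Transcript length ran with the fold changes of the members. Over the 33 tested members, the Spearman correlation between the length of the longest coding transcript in GENCODE M21 and the log2 fold change was 0.43, and it was 0.37 without WT replicate 4. Over the 11273 tested genes with a length, it was 0.36, and 0.25 without this library. The Spearman correlation between length and the deviation of WT replicate 4 from the other WT libraries was -0.74 over the members and -0.60 over all genes. WT replicate 4 had the lowest WT signal for 19 of the 33 members, among them Sel1l (6300 bases) and Ern1 (6946 bases), and the highest for 10, among them Ppib (892 bases) and Fkbp2 (1526 bases). It was also the highest WT library for lower genes outside the members, such as Cnpy2 (1383 bases) and Bloc1s1 (613 bases). The same held for Cnpy4, Txndc12, Prdx4, Spcs1, Sec61g, Fkbp7 and Fkbp11, and not for Rnf139, Ngly1 and Atf6b. The points share the same 8 libraries, and the part of length in the differences was not tested. The 19 higher members had a median length of 2861 bases, the 12 that did not pass the test one of 2878 bases, and the 2 lower members, Fkbp2 and Xbp1, one of 1827.5 bases.

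**Figure D5:**
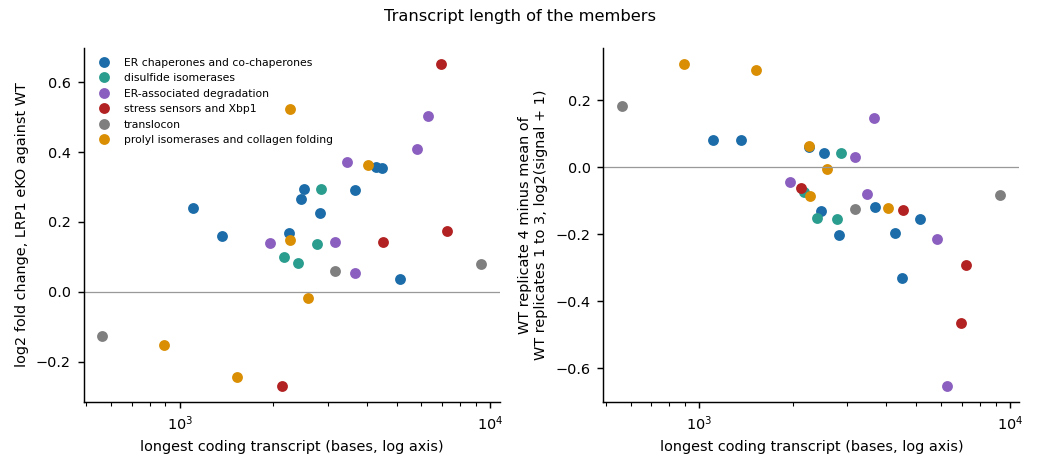
Longest coding transcript of each tested member (x axis, bases, log scale) against its log2 fold change (left) and against the deviation of WT replicate 4 from the mean of WT replicates 1 to 3 in log2(signal + 1) (right), coloured by role. Longer members tend to lie higher on the left and lower on the right, with Sel1l the lowest point on the right.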

How the data were processed

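The authors deposited the signal of 22520 protein-coding genes after quantile normalization, as 1 table with 8 library columns, all of which were used. Per the labels, TopHat2, Cufflinks and mm10 were used, whereas the paper's methods name trimGalore, STAR, featureCounts and a GENCODE model, and edgeR with a 2-fold threshold. Neither describes this table or the unit that went into the normalization. Quantile normalization removes a global shift between groups, and gives 2 libraries the same value where a gene has the same rank.

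From the deposited signal, log2(signal + 1) was fitted by genotype alone with limma 3.58.1 (R 4.3.3), using a trend of the variance on the mean, and p-values were adjusted over 11391 genes. An exact two-sided permutation test over the 8 libraries was computed for each member. The fit was also run on simulated data, with noise drawn for each gene and library on its own. It called 200 of 200 genes changed by a log2 of 2 and 179 of 200 changed by 0.5. Of 10916 unchanged genes it called 18. The changed genes were drawn only from those above a set mean signal. Changes smaller than 0.5, as most members had, were not simulated, so their recovery is not known. Deviations shared by the genes of a library, as in WT replicate 4, were not simulated either. The alternatives are listed in the closing section. Gene positions and transcript lengths came from GENCODE M21 on GRCm38 and promoter windows from RefSeq. Symbols absent from the table were matched by gene identifier, and Acta1 was not found. A marker of the plasma and B cell list is not reported here.

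The members, lists and alternatives were chosen with earlier results of these data known. Named genes were all members, Lrp1, the 2 genes with the smallest adjusted p in each direction of each other ER list, and the marker with the highest mean of each cell type list. Cdh5, Pecam1, Tek, Erg, Cldn5, Col1a1, Col1a2, Cd79b and Tnfrsf17, as well as Fkbp9, Fkbp14, Ppic, Plod3 and Os9, were named after their values were seen. Tables and figures used Python 3.11.15 and matplotlib 3.10.9.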

Additional observations from a re-analysis of the deposited data

Results flagged for a closer look

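Dixon's test was run on 66 groups of 4 libraries, WT and LRP1 eKO for each of the 33 tested members. In 4 groups the lowest library was set apart, and WT replicate 4 was that library each time. Chance flags about 1 in 20 independent groups, or 3.3 of 66. As the members share the same libraries, their groups are not independent, and this number cannot show whether the flags arose by chance. On the log2(signal + 1) scale, the distance of WT replicate 4 from the next WT library, divided by the WT range, was 0.924 for Hyou1, 0.861 for Sel1l, 0.947 for Sec61a1 and 0.888 for Serpinh1. Without it, the log2 fold changes were 0.27 for Hyou1, 0.34 for Sel1l, 0.028 for Sec61a1 and 0.13 for Serpinh1. The cause was not tested.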

How the results depend on the processing

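In the 18 alternatives, the pseudocount was 0.1 or 5, genes were not filtered or needed a mean signal of 5, limma ran with no trend, robust moderation or array weights, libraries were centred on a 30% trimmed mean, a replicate block was added, or libraries were left out, each in turn and WT replicate 4 with LRP1 eKO replicate 2. The count of higher members was between 15 (without LRP1 eKO replicate 3) and 21 (array weights). The count of lower members was 1 in place of 2 with no filter, without the trend and without WT replicate 4 and LRP1 eKO replicate 2, and from 1 to 2 with 1 library left out. The gene lost was Fkbp2. Of the 21 called members, 16 were called under all 18 alternatives. The others were Creld2, Pdia3, Derl1, Serpinh1 and Fkbp2. Pdia6, Herpud1 and Eif2ak3 passed the test under 1 to 3 alternatives each. With the replicate number as a block, 16 members were higher and 2 lower, as Creld2, Derl1 and Pdia3 were lost, and 23 other ER genes were higher and 20 lower. Same-numbered libraries correlated over genes, as deviations from their group means, at -0.086, -0.13, 0.18 and 0.038, so that the numbers were not taken as pairs, and WT replicate 1 correlated best with LRP1 eKO replicate 3 (0.11). The other ER genes had from 19 to 36 higher and from 18 to 23 lower over the alternatives. Shares of all genes under each alternative are not given here, so the counts of this section are not set against them. The number of members past both thresholds was 0 under each alternative, and no called member changed direction. Depth is unknown, so that no limit of detection can be given, and Derl3 was below the filter.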
